A study of Mus musculus with 32 samples.

Results

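The Snrpn and Ndn imprinted cluster is a group of 8 protein-coding genes on mouse chromosome 7, Atp10a, Ube3a, Snurf, Snrpn, Ndn, Magel2, Mkrn3 and Peg12, with the sequence between them. It was chosen by measured values: the longest H3K9me3 peaks of several lists lay in it, so its high coverage is a description and not a test. The window analysed was chr7:58800000-62900000 on build GRCm38, 4.1 Mb long. Its genes are 8 of the 21887 protein-coding genes in the reference table. Snurf lies inside the Snrpn gene and shares all of its base pairs with it, and Atp10a extends out of the window at its start. Values for a gene are for its whole body.

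The study mapped trimethylation of histone H3 lysine 9 (H3K9me3) by ChIP-seq in gonocytes, the male germ cells between sex determination and the first spermatogonia. Cells came from the testes of Mvh-Venus transgenic mice, whose germ cells carry a fluorescent reporter in every group. Cells from Morc1 (+/-) animals (het) and from Morc1 (-/-) knockout animals (KO) were taken at 2 embryonic stages, E13.5 and E16.5, and 2 postnatal ones, P0 and P3. The product of Morc1 is an ATPase of germ cell nuclei, and the question posed was how gonocyte chromatin differs without it. The labels give 2 H3K9me3 samples for each of the 8 groups of stage and genotype and 16 samples with an antibody against histone H3. The data were 1 deposited peak list per group. No list carries a replicate, a peak height or a read depth, so no value below has a replicate error or a test. All differences are between lists, and depth and calling threshold were not matched between them as far as is known. Over the whole genome the lists held 52628 to 93523 peaks that covered 166.1 to 339.5 Mb, with the shortest total in E13.5 het and the longest in P0 KO. Cell identity and the knockout could not be checked, since peak lists hold no expression values.

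In an imprinted cluster one parental chromosome is expressed and the other is silent, and the choice is set by DNA methylation laid down in the germ line. In this cluster the imprinting control region lies at the start shared by Snurf and Snrpn. It is methylated on the maternal chromosome and carries H3K9me3 on that methylated copy in somatic cells, and the paternal chromosome expresses Snurf, Snrpn, Ndn, Magel2, Mkrn3 and Peg12. In the male germ line the maternal methylation of this region is erased and is not put back. H3K9me3 marks constitutive heterochromatin and silenced retroelements, and zinc finger proteins such as ZFP57 bring it to methylated control regions. Ube3a is expressed from the maternal chromosome in neurons, where a long transcript from the Snrpn side (Snhg14), which hosts arrays of small nucleolar RNAs (snoRNAs), runs antisense to it.

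The reference sequence at 6 gene starts is shown here, the 4 starts whose calls differed between lists and the other two of Snrpn for comparison. Sequences are 300 bases from RefSeq (GRCm38.p6), 250 before to 50 after the annotated start, written 5′ to 3′ on the strand of the gene. Capitals mark matches on either strand to 3 motifs: TGCCGC, the hexamer bound by ZFP57 when methylated, GCATGCG, the core of the NRF1 motif, and ATGGCG, the core of the YY1 motif. The start shared by Snurf and Snrpn (minus strand, chr7:60005150-60005449) was the only member start with the ZFP57 hexamer. The 3 upstream Snrpn starts (minus strand, chr7:60047929-60048228, chr7:60140176-60140475 and chr7:60450128-60450427) resemble each other and behaved differently in the lists. The starts of Ndn (plus strand, chr7:62348027-62348326) and Mkrn3 (minus strand, chr7:62420104-62420403) were called only at E13.5, that of Ndn in KO alone.
Snurf and Snrpn shared start: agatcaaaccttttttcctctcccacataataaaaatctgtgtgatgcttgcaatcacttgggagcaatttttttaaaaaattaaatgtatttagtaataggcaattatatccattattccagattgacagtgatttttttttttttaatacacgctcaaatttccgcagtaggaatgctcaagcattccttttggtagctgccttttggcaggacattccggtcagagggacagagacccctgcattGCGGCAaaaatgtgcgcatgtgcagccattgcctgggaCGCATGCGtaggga
Snrpn nearest upstream start: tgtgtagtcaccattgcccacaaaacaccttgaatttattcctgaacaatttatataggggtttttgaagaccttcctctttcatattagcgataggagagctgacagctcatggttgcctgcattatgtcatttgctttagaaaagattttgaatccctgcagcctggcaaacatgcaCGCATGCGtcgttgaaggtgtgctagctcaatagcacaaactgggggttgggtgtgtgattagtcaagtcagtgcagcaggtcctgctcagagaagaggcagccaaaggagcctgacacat
Snrpn middle upstream start: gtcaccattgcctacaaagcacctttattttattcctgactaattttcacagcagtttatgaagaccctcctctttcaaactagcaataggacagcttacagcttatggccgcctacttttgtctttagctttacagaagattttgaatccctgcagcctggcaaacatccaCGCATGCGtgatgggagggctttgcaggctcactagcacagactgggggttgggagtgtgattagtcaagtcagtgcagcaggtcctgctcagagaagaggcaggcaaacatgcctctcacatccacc
Snrpn farthest upstream start: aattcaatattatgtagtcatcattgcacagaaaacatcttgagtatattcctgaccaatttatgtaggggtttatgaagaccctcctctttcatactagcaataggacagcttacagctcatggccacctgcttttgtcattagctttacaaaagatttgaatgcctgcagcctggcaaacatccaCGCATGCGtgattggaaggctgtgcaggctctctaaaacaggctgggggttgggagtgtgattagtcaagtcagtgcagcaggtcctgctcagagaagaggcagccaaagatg
Ndn start: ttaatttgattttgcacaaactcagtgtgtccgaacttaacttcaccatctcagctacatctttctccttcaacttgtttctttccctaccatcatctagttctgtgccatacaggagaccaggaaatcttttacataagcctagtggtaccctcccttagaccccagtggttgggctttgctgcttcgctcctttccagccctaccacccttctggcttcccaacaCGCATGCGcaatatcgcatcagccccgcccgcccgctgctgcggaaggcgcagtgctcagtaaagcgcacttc
Mkrn3 start: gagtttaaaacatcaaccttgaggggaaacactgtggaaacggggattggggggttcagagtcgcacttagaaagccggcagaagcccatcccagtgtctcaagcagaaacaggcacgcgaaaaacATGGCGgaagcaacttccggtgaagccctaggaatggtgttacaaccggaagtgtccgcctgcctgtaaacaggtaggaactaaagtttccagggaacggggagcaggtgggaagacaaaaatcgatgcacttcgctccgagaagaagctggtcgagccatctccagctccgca

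The ZFP57 hexamer was found in 11.6% of 32817 promoter sequences of the same length and in 1 of the 10 member promoters. NRF1 cores occurred in 3.57% of all promoters and in 5 of the 10, namely the 4 Snrpn starts and Ndn. The core overlaps its own reverse complement, so each of these 5 holds 2 matches in a single run of capitals. YY1 cores were in 8.92% of all promoters and in 2 of the 10, Ube3a and Mkrn3. The Snurf and Snrpn shared start held 7 CG dinucleotides, which is the median of all promoters (7), and the upstream Snrpn starts held 4, 3 and 2. The 3 upstream starts aligned with one another at 85.0% to 88.7% identity over 284 to 293 bases, and with the shared start at 59.6% to 62.6% over 171 to 203 bases. A match describes letters and says nothing of binding in these cells.

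At the shared start, H3K9me3 was called at E13.5 and at no later stage. In E13.5 het and E13.5 KO the start lay inside a peak that ran over the whole of Snurf. This peak was chr7:59918626-60041477 (122.9 kb) in het and chr7:59918650-60050772 (132.1 kb) in KO, the longest of the window in each list. In the 6 later lists the nearest called base was 1575 bp away in E16.5 het and 1864 bp in E16.5 KO, 3912 and 3928 bp in P0 het and P0 KO, and 6166 and 4040 bp in P3 het and P3 KO. The nearest called base was thus farther from the start at each later stage in het, and in KO farther at P0 than at E16.5 and similarly far at P3.

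Snurf, the upstream reading frame of the Snurf-Snrpn transcript, followed the same course over its 22.7 kb body. It was called over 100% of its length in E13.5 het and in E13.5 KO. It was called over 85.3% in E16.5 het and 64.1% in E16.5 KO. At P0 the values were 43.0% in het and 28.2% in KO, and at P3 they were 14.3% in het and 29.4% in KO. KO was lower than het at E16.5 and P0 and higher at P3, so the order of the genotypes was not kept.

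Snrpn, which encodes SmN, a core spliceosomal protein of the brain, is the longest member (467.7 kb with its upstream starts). At E13.5 its body was called over 223.4 kb in het and 250.0 kb in KO, 47.8% and 53.5% of its length. The E16.5 lengths were 211.8 kb (het) and 205.2 kb (KO), and those at P0 were 165.3 and 169.4 kb. By P3 they were 125.5 and 138.0 kb, 26.8% and 29.5% of the gene. Every list was lower than the list of the same genotype at the stage before. The nearest upstream start, 60047978, lay in a peak in all 8 lists. The middle one, 60140225, lay in a peak in both E13.5 lists, both E16.5 lists and P0 KO, and was 693, 589 and 539 bp from the nearest called base in P0 het, P3 het and P3 KO. The farthest, 60450177, lay in none and was 2840 to 23178 bp from one. These starts, 85.0% to 88.7% identical to one another, were thus called in 8, 5 and 0 of the lists.

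At the far side of the cluster lie 4 intronless genes, and none of them was called after birth. Mkrn3, a makorin RING finger protein (2.56 kb), was called over 100% in both E13.5 lists, 45.0% in E16.5 het and 21.6% in E16.5 KO, and was listed at 0 in the 4 postnatal lists. Magel2, a MAGE family regulator of ubiquitin ligases (4.66 kb), was called over 72.8% in E13.5 het and 78.6% in E13.5 KO. A single peak of the most common length, 1001 bp, was left over Magel2 in E16.5 het, and none in E16.5 KO or later. Ndn, which encodes necdin, another MAGE family protein (1.65 kb), was called only in E13.5 KO, over 68.8% of its length and including its start. With only the longer 50% of peaks that call was gone, and with it the difference between the genotypes. In the other 7 lists the start of Ndn was 5110 to 17963 bp from a called base. Peg12, a member of the FRAT family of GSK3-binding proteins (2.64 kb), was called in none of the 8 lists.

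The starts of these genes differed as well. Mkrn3 was called at its start in both E13.5 lists, and the nearest called base was 1409 and 1239 bp away in E16.5 het and E16.5 KO and 15927 to 18374 bp away in the postnatal lists. Magel2 had no call at its start in any list, although the nearest called base was only 1076 and 997 bp away in E13.5 het and E13.5 KO. The start of Peg12 was 1332 and 1676 bp from one at E13.5 and 9079 to 10931 bp later.

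Ube3a, the ubiquitin ligase that is silenced on the paternal chromosome of neurons (82.1 kb), was almost free of calls. It was listed at 0 in all 4 het lists and in E13.5 KO and E16.5 KO, while P0 KO held 2.002 kb of calls and P3 KO 1.001 kb. Those calls are peaks of the most common length, and none is left when only longer peaks are used. Atp10a, a phospholipid flippase (174.1 kb), carried 4.73 and 4.48 kb at E13.5 (het and KO), 1.001 and 1.86 kb at P3 and 1.52 kb in P0 KO, and was listed at 0 in the other 3 lists. Its postnatal calls were gone with only the longer 50% of peaks. Both genes were thus called over at most 2.72% of their length, although the 398.5 kb between them were not bare.

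**Figure D1:**
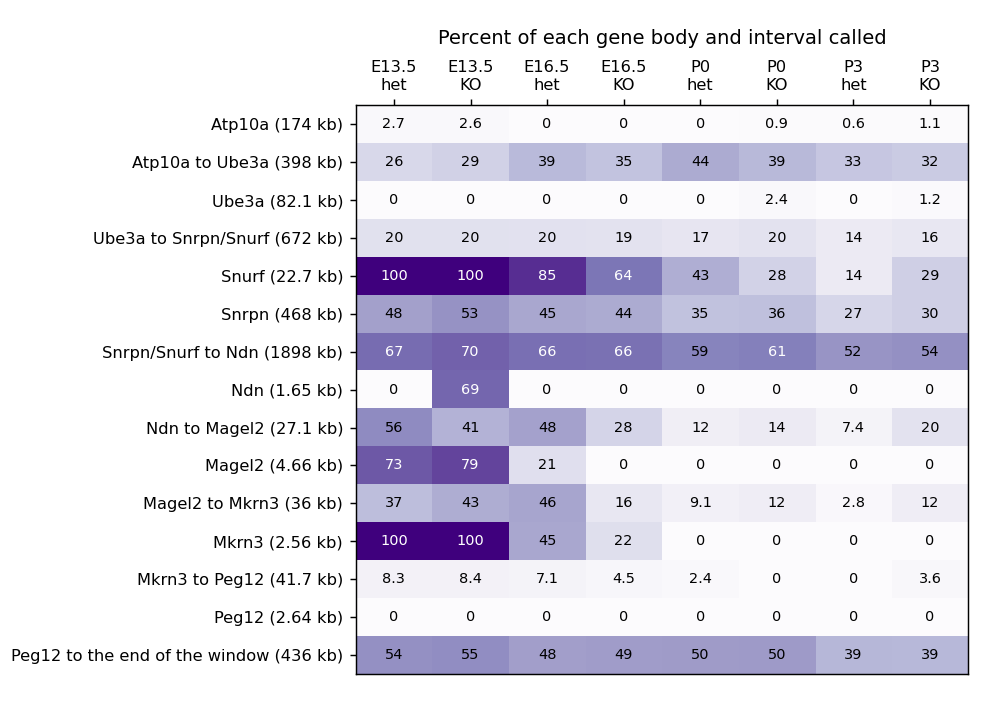
Percent of each member gene and of each interval between neighbouring members called H3K9me3 (rows, in genome order, with lengths) in the 8 peak lists (columns, 1 list per stage and genotype); darker cells are more called. Snurf and Mkrn3 are at 100 at E13.5, Mkrn3 and Magel2 reach 0, and only the interval from Atp10a to Ube3a is higher at P3 than at E13.5 among the intervals.

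Of 10 annotated member starts, 4 lay in a peak in E13.5 het, 5 in E13.5 KO, 2 in each E16.5 list, 1 in P0 het, 2 in P0 KO and 1 in each P3 list. The reference holds 21238 distinct annotated starts of protein-coding genes, and a gene can have more than 1. Of these starts, 3.57% lay in a peak in E13.5 het, 4.85% in E13.5 KO, 3.92% in E16.5 het and 3.66% in E16.5 KO. After birth the shares were 4.07% in P0 het, 4.57% in P0 KO, 3.66% in P3 het and 4.26% in P3 KO. The share over all starts moved little while the member count went from 4 and 5 to 1. The member starts are not independent, since several belong to Snrpn and neighbouring ones can lie in the same peak. All those called at E13.5 were starts of Snrpn, except that of Mkrn3 and, in KO, that of Ndn. These values were known when the genes were chosen, so the contrast is a description. Of the 8 member bodies, 5 had any called base in E13.5 het, 6 in E13.5 KO, 4 in E16.5 het, 3 in E16.5 KO, 2 in P0 het, 4 in P0 KO, 3 in P3 het and 4 in P3 KO. Over all genes, 29.5% had any called base in E13.5 het, 32.9% in E13.5 KO and 31.0% to 40.1% in the later lists, so the later member counts, 2 to 4 of 8, lie near that share. At least 50% of the body was called for 3 and 5 members at E13.5, 1 and 1 at E16.5 (het and KO) and none after birth. Over all 21887 genes, 510 and 666 were called over at least 50% at E13.5 and 628 to 733 in the later lists, and the median gene had 0% in every list. The member medians were 25.3% and 61.1% at E13.5, 10.7% and 0% at E16.5, 0% and 0.438% at P0 and 0% and 0.533% at P3.

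To set the stages side by side, a gene was compared where at least 1000 bp were called in either list, and counted when its called length differed at least 1.5-fold. Snrpn and Snurf share base pairs, successive comparisons share a list, and these differences were known when the genes were chosen, so the counts are printed without further reading. Between E13.5 and P3 in het, 5 of 5 compared members were lower at P3 (Atp10a, Snrpn, Snurf, Magel2 and Mkrn3), where 17.4% of all compared genes were lower and 65.6% higher. In KO, 6 of 7 were lower (the same 5 and Ndn), against 19.5% of genes, and 1, Ube3a, was higher, against 64.0%. From E13.5 to E16.5, 3 of 5 members were lower in het (Atp10a, Magel2, Mkrn3) with 19.7% of genes, and 5 of 6 in KO (Atp10a, Snurf, Ndn, Magel2, Mkrn3) with 29.3%. At that step 0 members were higher in either genotype, where 52.2% of genes were in het and 38.2% in KO. From E16.5 to P0, 3 of 4 were lower in het (Snurf, Magel2, Mkrn3) with 22.7% of genes, and 0 were higher, with 33.1%. In KO, 1 of 4 was lower at this step (Snurf) with 10.7% of genes, and 2 were higher (Atp10a and Ube3a) with 53.7%. From P0 to P3 in het, 1 of 3 was lower (Snurf) with 16.3% of genes, and 1 was higher (Atp10a) with 38.4%. In KO, 1 of 4 was lower (Ube3a) with 18.0%, and 0 were higher, with 31.0%.

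Across the whole window the called share was lower at P3 than at E13.5, while over other sequence it was higher. Peaks covered 48.9% of the window in E13.5 het, 51.5% in E13.5 KO, 48.9% in E16.5 het and 47.7% in E16.5 KO. They covered 44.0% in P0 het, 44.9% in P0 KO, 37.0% in P3 het and 38.6% in P3 KO. Over the rest of the genome, counted between the outermost peaks on each chromosome, the shares in the same order were 6.31%, 7.21%, 11.7%, 10.8%, 12.4%, 13.0%, 11.0% and 12.0%. The window was thus called 7.74 and 7.15 times as densely as other sequence at E13.5 (het and KO), and 3.37 and 3.21 times at P3. The rest of chromosome 7 was called over 7.22% to 12.7%, close to the genome.

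Relative to E13.5, the called length of the window at P3 was 0.758 in het and 0.750 in KO. Elsewhere the ratios were 1.74 and 1.67. Step by step, the window ratios in het were 1.00 from E13.5 to E16.5, 0.899 to P0 and 0.842 to P3, where other sequence had 1.85, 1.06 and 0.884. In KO they were 0.925, 0.943 and 0.8598, where other sequence had 1.498, 1.20 and 0.925. The widest separation from other sequence was therefore at the step from E13.5 to E16.5 in both genotypes, when called sequence elsewhere was extended and the window had no such gain.

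**Figure D2:**
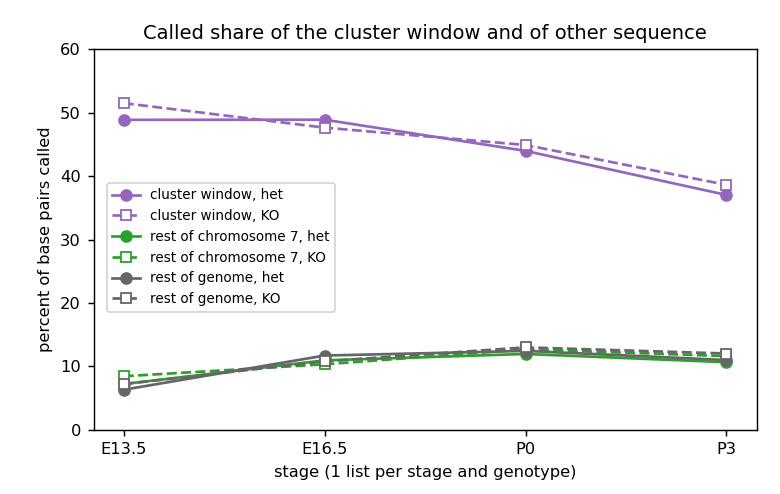
Percent of base pairs called H3K9me3 (vertical axis) at the 4 stages (horizontal axis) in the cluster window, in the rest of chromosome 7 and in the rest of the genome; filled circles are het and open squares KO, 1 list per point and no error bars. The window lies between 37.0% and 51.5% and is lowest at P3, and the other sequence lies between 6.31% and 13.0% and is lowest at E13.5.

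The window held more peaks at P3 than at E13.5 and fewer long ones, and so did the whole lists. The window held 170 and 174 peaks at E13.5 (het and KO), 173 and 176 at E16.5, 193 and 192 at P0, and 196 and 197 at P3. Peaks of at least 30 kb numbered 21 and 22 at E13.5, 21 and 19 at E16.5, 15 and 16 at P0, and 8 and 8 at P3. These long peaks held 1224 and 1309 kb at E13.5 and 304.2 and 346.6 kb at P3. Over the whole lists, peaks of at least 30 kb numbered 276 and 346 at E13.5 (het and KO), 449 and 405 at E16.5, 191 and 222 at P0, and 88 and 111 at P3. From E13.5 to E16.5 their number thus went up over the whole lists and not in the window. The window held 7.61% and 6.36% of them at E13.5, 4.68% and 4.69% at E16.5, 7.85% and 7.21% at P0, and 9.09% and 7.21% at P3. The longest peak of the window measured 101.2 kb (het) and 102.1 kb (KO) at E16.5; the P0 lengths were 71.0 and 70.8 kb, and those at P3 47.7 and 65.6 kb. Except in P3 KO, the longest peak of each of these later lists lay over members of the Mir344 microRNA family rather than over Snurf.

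Between the genes, the called share depended on the interval. The longest, the 1898 kb from Snrpn to Ndn, was called over 66.8% in E13.5 het, 70.2% in E13.5 KO, 66.3% in E16.5 het, 65.8% in E16.5 KO, 59.2% in P0 het, 60.9% in P0 KO, 52.1% in P3 het and 54.1% in P3 KO. It held most of the called base pairs of the window in every list, for example 989.7 of 1519 kb in P3 het. The 27.1 kb from Ndn to Magel2 were called over 56.1% in E13.5 het, 41.3% in E13.5 KO, 47.6% in E16.5 het and 27.6% in E16.5 KO. After birth the same stretch was called over 11.7%, 14.1%, 7.40% and 19.8% (P0 het, P0 KO, P3 het, P3 KO). The 35.95 kb from Magel2 to Mkrn3 were called over 37.0%, 43.1%, 45.9% and 16.2% before birth in the same order of lists, and over 9.11%, 12.3%, 2.78% and 11.9% after it. With only the longer 50% of peaks, the 4 postnatal values from Ndn to Magel2 and the P3 values from Magel2 to Mkrn3 were 0. Both intervals were less called after birth than at E13.5, but they did not follow their genes list by list: from E13.5 to E16.5 in het, the stretch from Magel2 to Mkrn3 was more called while both genes were less called.

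The side of the cluster toward Atp10a took another course. The 398.5 kb from Atp10a to Ube3a were called over 25.6% in E13.5 het, 28.8% in E13.5 KO, 38.6% in E16.5 het, 35.2% in E16.5 KO, 44.0% in P0 het, 39.0% in P0 KO, 33.4% in P3 het and 31.6% in P3 KO. It was the only interval of the window with more called sequence at P3 than at E13.5 in both genotypes, a direction shared with the rest of the genome. From Ube3a to Snurf (671.7 kb) the shares were 20.5%, 20.5%, 20.2%, 19.5%, 17.3%, 19.7%, 14.2% and 16.2% in the same order of lists. Beyond Peg12, the last 435.5 kb of the window were called over 54.2%, 55.4%, 48.4%, 48.9%, 49.6%, 49.7%, 39.5% and 39.3%. The 41.7 kb from Mkrn3 to Peg12 were called over at most 8.42%.

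**Figure D3:**
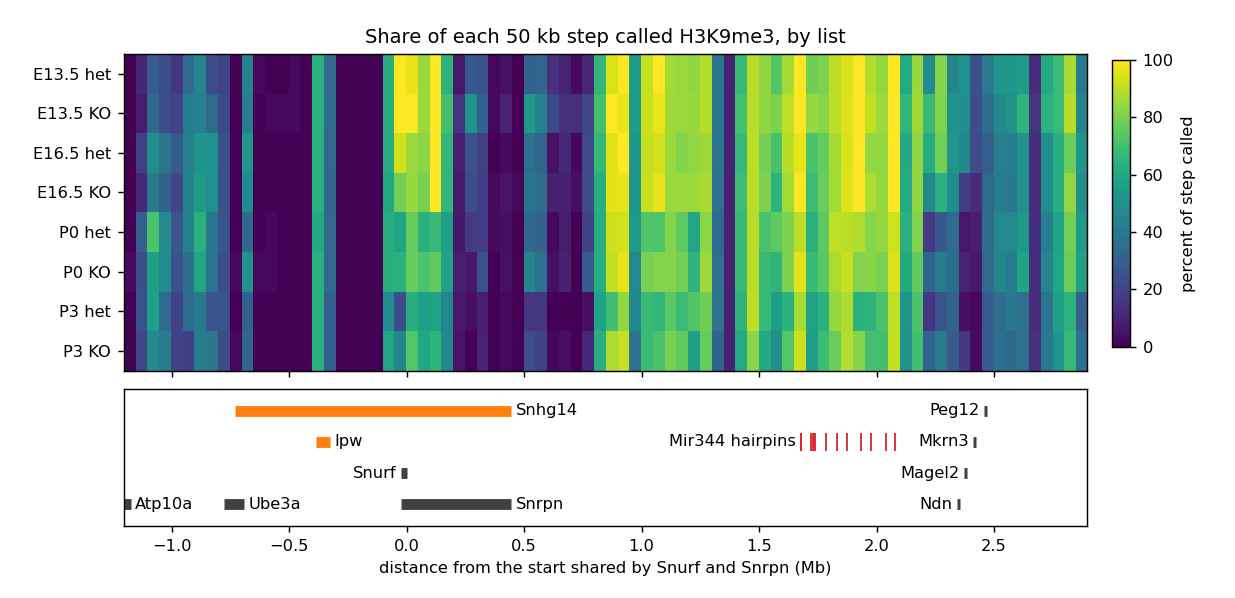
Percent called H3K9me3 in 50 kb steps along the window (colour) in the 8 lists (rows), with distance in Mb from the start shared by Snurf and Snrpn on the horizontal axis and member genes, Snhg14, Ipw and the Mir344 hairpins drawn below. The block over Ipw stands alone between steps that no list called, and the steps around the shared start are less called at P0 and P3 than at E13.5.

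In no list was 43.1% of the window called (1768 kb), and in all 8 lists 32.4% was (1327 kb). The longest uncalled stretches were chr7:59672962-59918573 (245.6 kb) and chr7:59506695-59617993 (111.3 kb), both between Ube3a and Snurf and inside Snhg14. They hold 70 and 60 of the 206 annotated snoRNA genes of that interval. Only 8 of the 206 touched a peak in any list, and of all 207 in the window 2.42% to 3.87% did in each list, against 5.47% to 12.9% of 1133 snoRNA genes elsewhere. These snoRNA genes are tandem copies, and how reads that fit several copies were treated is not given in the sources used here, so a missing call there is not read as a missing mark.

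Between these uncalled stretches stood 1 called block that changed little. It was made of 2 peaks with uncalled sequence between them, or 3 in P0 het. It began at 59617994 to 59618307 and ended at 59670341 to 59672961 in the 8 lists, and lay over most of Ipw, a noncoding RNA gene named for its imprinting. Of Ipw (59.7 kb), 81.0% and 81.2% were called at E13.5 (het and KO), 80.6% and 80.0% at E16.5, 77.9% and 80.9% at P0, and 76.6% and 76.6% at P3. Its span of values, 76.6% to 81.2%, contrasts with 14.3% to 100% for Snurf. Snhg14 as a whole (1177 kb) was called over 18.8% to 32.9%. Of the other long noncoding RNA genes in the window, 7 lie between Snrpn and Ndn, and 6 of these were called over at least 50.07% in every list, among them A230006K03Rik (71.6% to 89.2%) and A230057D06Rik (73.5% to 89.1%). The remaining one, Gm31652, lay in a 76.2 kb stretch that no list called. Gm32061, which runs from before Ndn to past Mkrn3, was called over 44.9% and 48.5% at E13.5, 45.0% and 22.4% at E16.5, 11.0% and 9.60% at P0, and 5.32% and 11.2% at P3.

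The stretch from Snrpn to Ndn holds the 13 microRNA hairpins of the Mir344 family, all on the minus strand from 61683124 to 62085310. A peak lay on 11 of the 13 in each of the 4 embryonic lists, on 7 in P0 het, 8 in P0 KO and 6 in each P3 list. Among 1215 microRNA genes elsewhere the share was 2.96% to 6.17%. The hairpins are neighbours in a few long peaks and are not independent counts. Hairpins Mir344d-1, Mir344d-2, Mir344d-3, Mir344c, Mir344 and Mir344i were called in all 8 lists, and Mir344h-1 and Mir344h-2 in none. Mir344b, Mir344-2 and Mir344g were called in the 4 embryonic lists only.

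For the hairpins called in every list, the 3p mature sequences from RefSeq (GRCm38.p6) are shown, with miR-344i, whose arm is not named, and miR-344h-3p of the never-called hairpins. The 5p sequences are not shown. Capitals mark the seed, bases 2 to 8.
mmu-miR-344-3p: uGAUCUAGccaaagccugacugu
mmu-miR-344c-3p: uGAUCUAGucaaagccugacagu
mmu-miR-344d-3p: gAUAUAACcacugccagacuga
mmu-miR-344i: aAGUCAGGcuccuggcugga
mmu-miR-344h-3p: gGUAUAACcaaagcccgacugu
The seed GAUCUAG is shared by miR-344-3p and miR-344c-3p, and the seed AUAUAAC of miR-344d-3p is shared with miR-344e-3p. The 3 hairpins that give miR-344d-3p were all called in all 8 lists. The 2 hairpins that give miR-344-3p were not alike, since Mir344 was called in all 8 and Mir344-2 in 4. The never-called hairpins, Mir344h-1 and Mir344h-2, lie beside Mir344e (called in 5 lists) and carry a seed, GUAUAAC, that no other mature sequence of the family has.

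In 1 kb bins, called where at least 50% of the bin lay in a peak, 2331 of the 4100 bins of the window were called in at least 1 list. Of these 57.2% were called in all 8 lists, against 19.4% of the called bins of the rest of the genome. The window was chosen for long peaks in several of these lists, so this contrast is a description. The same holds for the bins compared between stages and genotypes below. Bins called in a single list were 6.31% of the window's called bins and 19.9% elsewhere. Of all 4100 bins of the window, 1333 (32.5%) were called in all 8 lists and 1769 (43.1%) in none.

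**Figure D4:**
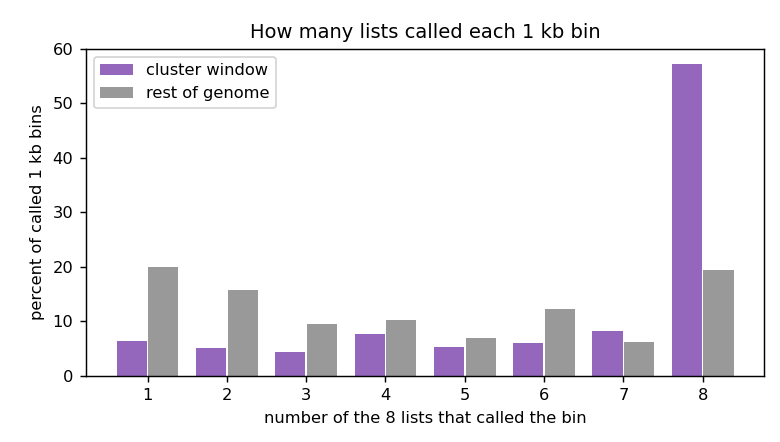
Percent of called 1 kb bins (vertical axis) by the number of the 8 lists that called the bin (horizontal axis), in the cluster window and in the rest of the genome. The bar for all 8 lists is 57.2% in the window and 19.4% elsewhere.

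Called bins were then followed from stage to stage, in the window and elsewhere. Of the bins called at E13.5, 72.8% in het and 72.3% in KO were also called at P3 in the window, and 74.5% and 70.8% elsewhere. Of the bins called at P3, only 3.83% in het and 3.59% in KO had not been called at E13.5 in the window, against 57.2% and 57.5% elsewhere. From E13.5 to P3 the share of early bins still called was thus similar inside and outside, and the shares of new bins differed. Step by step, retention was higher in the window: 93.5%, 84.4% and 81.1% in het against 88.5%, 76.3% and 73.8% elsewhere, and 88.5%, 88.2% and 83.4% in KO against 83.5%, 81.9% and 76.2%.

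For the genotypes, KO and het lists of the same stage were compared. From E13.5 to P3 in order, the ratio of KO to het in called length of the window was 1.05, 0.974, 1.02 and 1.04. In the rest of the genome the same ratios were 1.14, 0.923, 1.04 and 1.09. At each stage the window had the direction of the other sequence and lay nearer to 1. The largest difference was at E13.5, where 108.0 kb more were called in KO.

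Most called bins of the window were called in both genotypes. Their share of the bins called in either genotype was 90.04% at E13.5 (95% Wilson interval 88.7% to 91.2%), 90.7% at E16.5 (89.4% to 91.9%), 87.3% at P0 (85.8% to 88.7%) and 82.7% at P3 (80.8% to 84.4%). In the rest of the genome the shares were 71.0%, 79.7%, 69.8% and 66.5%. The intervals cover counting error only and treat neighbouring bins as independent, which they are not. Peaks with no counterpart of at least 1 bp in the other genotype numbered 11 in het and 21 in KO at E13.5, 15 and 13 at E16.5, 16 and 17 at P0, and 16 and 30 at P3. They were 6.47% and 12.1% of the peaks of the window at E13.5 (het and KO), 8.67% and 7.39% at E16.5, 8.29% and 8.85% at P0, and 8.16% and 15.2% at P3. Over the whole lists the shares were 11.3% and 21.4%, 13.4% and 6.94%, 12.0% and 19.4%, and 13.9% and 20.7%. With equal numbers of the longest peaks the order of the genotypes turned at E13.5 (22 in het, 10 in KO), P0 (13 and 7) and P3 (14 and 13), so which genotype had more is not set. The longest peak without a counterpart was 8.69 kb, in P0 KO.

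Genotype-only runs of bins were short. The longest run called only in KO at E13.5 was 6 kb (chr7:60708001-60714000, between Snrpn and Ndn), and the longest called only in het was 3 kb. At E16.5 the longest het-only run, 5 kb (chr7:62397001-62402000), lay between Magel2 and Mkrn3. At P0 the longest KO-only run, 9 kb (chr7:62247001-62256000), was fully called in E13.5 het, E16.5 het and E16.5 KO, was partly called in E13.5 KO, P3 het and P3 KO (7.06, 1.001 and 6.90 kb), and was listed at 0 in P0 het. At P3 the longest KO-only run, 5 kb (chr7:59977001-59982000), ended just short of Snurf and was fully called in the 6 earlier lists. The longest het-only run at P3 was 6 kb, between Atp10a and Ube3a.

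At the 1.5-fold level, 1 of 6 compared members was higher in KO at E13.5 (Ndn), where 32.0% of all genes were, and none was lower, where 9.99% were. At E16.5 none of 4 was higher (7.46% of genes) and 2, Magel2 and Mkrn3, were lower (13.2%). At P0, 2 of 4 were higher, Atp10a and Ube3a (38.2%), and 1, Snurf, was lower (6.94%). At P3, 3 of 4 were higher, Atp10a, Ube3a and Snurf (30.0%), and none was lower (10.7%). No member differed at this level in the same direction at all 4 stages, and Snurf changed sides between P0 and P3.

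Genes beside the cluster and imprinted genes of other clusters were described from written lists. None of 17 flanking genes was called over at least 50% in any list, and their medians ran from 1.956% (E13.5 het) to 5.57% (P3 het). The most called was Nipa2, a magnesium transporter gene, at 32.2% to 42.6%. Of 31 imprinted genes elsewhere, the medians were 3.51% and 7.30% at E13.5 (het and KO) and 1.55% to 3.32% in the 6 later lists. The most called were Peg10, a gene derived from a retrotransposon, with 32.3% to 66.2%, Dio3, a deiodinase gene called over 74.6% in E13.5 KO and listed at 0 in the other 7 lists, and Phlda2, called over 62.5% in E13.5 KO and likewise at 0 elsewhere. Ndn, Dio3 and Phlda2 were thus all called in E13.5 KO only, each through a body under 2 kb. Dio3 and Phlda2 were picked by these values, and 32.0% of all compared genes were at least 1.5-fold higher in KO at E13.5. The call in Ndn was gone with only the longer 50% of peaks, and those in Dio3 and Phlda2 were not checked in this way.

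The genes elsewhere whose called percentage was nearest to that of Snrpn over the 8 lists, by mean absolute difference, were Adgrf4 on chromosome 17 (3.07 percentage points), Lrif1 on chromosome 3 (3.91) and Scgb1b30 on another part of chromosome 7 (5.29). Adgrf4 was called over 48.5% and 50.9% at E13.5 and 32.7% and 36.4% at P3, and Lrif1 over 42.0% and 56.7% at E13.5 and 24.3% and 25.2% at P3. The likeness is over 8 lists, in each of which all genes were measured in the same libraries, and is a description.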

How the data were processed

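The deposited files were 8 lists of H3K9me3 peak coordinates, 1 per stage and genotype, with no score, height or depth. Per the submitters' processing notes, bcl2fastq 2.20, cutadapt 1.18, Bowtie2 2.3.4.1, deepTools 3.5.0, HOMER 4.10 and build mm10 were used. How and at what threshold peaks were called, whether H3 libraries served as controls and how the 2 samples per group were joined are not given in the sources used here. The H3 samples entered no comparison. Peaks were read as 0-based, half-open intervals and are printed here with 1-based starts. The 0 to 2 mitochondrial peaks per list were left out. Base pairs called per gene, interval and 1 kb bin were counted with Python 3.11.15, numpy 2.4.6 and pandas 2.3.3. Coverage functions were tested on simulated intervals. Gene ends, promoters and microRNAs came from RefSeq tables of GRCm38, which give no exons. Pairs of Snrpn starts were aligned with Biopython 1.88. With 1 list per group no test was run. Named genes were all members and intervals, the longest peaks and genotype-only runs, the 3 genes most like Snrpn, and the most called genes of 2 written lists. Ipw, other noncoding genes, Cdkn1c and Mest were named after their values were seen. Members, lists and measures were chosen with earlier results of these data known. Alternatives were peak-length filters, equal peak numbers, joined peaks, other bin, fold, overlap and start definitions, and 2 added after seeing the data (E13.5 with P3, tiles).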

Additional observations from a re-analysis of the deposited data

Results flagged for a closer look

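In 4 regions the difference between KO and het had opposite signs at 2 stages and was at least 5 kb both ways. With 1 list per group the change of sign was not tested. In the whole window KO had 108.0 kb more than het at E13.5, and the difference, KO minus het, was -51.48 kb at E16.5. For the same stages the differences in Snrpn were 26.55 and -6.673 kb, and those from Snrpn to Ndn were 63.55 and -9.707 kb. These regions overlap. From Atp10a to Ube3a it was 13.02 kb at E13.5 and -19.63 kb at P0. The whole lists had the same signs as the window at E13.5 and E16.5, with ratios of KO to het of 1.14 and 0.923 over other sequence. The interval from Atp10a to Ube3a also had less in KO at E16.5 (-13.80 kb) and at P3 (-7.135 kb). At P0 and P3 it went against the rest of the genome, where the ratios were 1.04 and 1.09.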

How the results depend on the processing

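The called length of the window at P3 relative to E13.5 stayed below 1 under all 4 peak-set alternatives (0.735 to 0.758 in het, 0.727 to 0.750 in KO), and that of other sequence above 1. One of the 4, joining peaks within 1 kb, left the window values unchanged and is no separate check. With the same number of the longest peaks per list, the ratio of E16.5 to E13.5 in het was 0.979 in place of 1.00, so its direction is not set. By the same setting KO no longer had more peaks without a counterpart than het at E13.5, P0 and P3. The window was then called over 43.3% in P0 KO and 37.1% in P3 KO, and peaks with no counterpart numbered 22 in E13.5 het, 10 in E13.5 KO, 6 in E16.5 KO, 7 in P0 KO and 13 in P3 KO. Using only the longer 50% of peaks, the window was called over 47.2% in E13.5 het, 47.3% in E16.5 het, 45.7% in E16.5 KO, 42.1% in P0 het, 43.1% in P0 KO, 35.0% in P3 het and 36.5% in P3 KO. Peaks with no counterpart then numbered 3 in E13.5 het, 9 in E16.5 het, 2 in E16.5 KO, 8 in P0 het, 11 in P0 KO, 10 in P3 het and 12 in P3 KO. With peaks above 1001 bp only, they were 6 in E13.5 het, 7 in E16.5 KO and 8 in P0 het. At an overlap of 50%, 35 peaks of E13.5 KO had no counterpart. At 2-fold, 0 members were lower in KO at P0. Within 1 kb of a peak lay 2 member starts in P0 het, P3 het and P3 KO. Of 544 gene and interval values under alternatives, 506 stayed within the 95% Wilson interval of their share of 1 kb bins, which is wide for the short genes, and 38 moved, mostly under the stricter peak sets (18 with the longer 50%, 11 with equal numbers). Joined peaks gave 120 of the 506, since no value moved there. The calls in Ube3a, and that in Magel2 at E16.5, were 0 with peaks above 1001 bp only. With the longer 50% of peaks, those in Ndn and those in Atp10a after birth were also 0. So were the postnatal ones from Ndn to Magel2 and the P3 ones from Magel2 to Mkrn3. No paired analysis was possible because the lists carry no replicate number and no result comes from a test, and no replicate could be left out for the same reason. Depth is unknown, so which short calls depth decides cannot be said.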

Other observations

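The autosomes and X were also divided into 631 tiles of the same length as the window, a description added after its values had been seen. No tile was called more densely than the window in 6 of the 8 lists, while 5 tiles were in E16.5 het and 2 in E16.5 KO. The median tile was called over 4.47% in E13.5 het and 9.72% in P3 het. In het, 34 of the 631 tiles had less called sequence at P3 than at E13.5, and in KO 44 did. Among tiles called over at least 25% at E13.5, 10 of 12 in het and 10 of 15 in KO were lower at P3. In each genotype these tiles were picked by the E13.5 list that P3 is compared with, which in itself favours a lower P3 value. The ratio of P3 to E13.5 was below that of the window in 8 tiles in het and 9 in KO. A lower called share at P3 was thus uncommon among tiles and common among those most called at E13.5, and the window was among the latter. The window was itself chosen for its long peaks, so its place there is a description.

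Other imprinted genes called at E13.5 and in none of the 6 later lists included Cdkn1c, a cell cycle inhibitor gene, called over 38.4% in het and 62.2% in KO, and Mest, over 19.4% and 17.6%. Both were picked after their values were seen. Mkrn3 and Magel2 in the cluster differ from these in that calls remained in at least 1 E16.5 list.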
